A study of Homo sapiens with 12 samples.

Results

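The interferon-stimulated genes followed here are 48 human genes whose transcription interferon is known to raise, listed by name. Each was represented by 1 probe set, a group of short oligonucleotides on the array that reads 1 transcript. The probe set had to be annotated to that symbol alone, and where several were, the one with the highest mean over the 12 arrays was taken. By this rule 46 of the 48 were measured, out of 18132 genes measured in the series. STAT2 had no such probe set listed, and the only one for USP18 names several genes.

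The arrays came from OCM1 and MUM2B, 2 human cell lines labelled as uveal melanoma, a cancer of the pigment cells of the eye. CANT1, a long noncoding RNA transcribed from the CASC15 locus, was overexpressed in both lines, and those cells were set against wild type cells of the same line. The controls of replicates 2 and 3 are labelled control, with source names that call them wild type, and those of replicate 1 wild type. There were 3 Affymetrix PrimeView arrays in each of the 4 groups: OCM1 CANT1, OCM1 wild type, MUM2B CANT1 and MUM2B wild type. The labels of replicate 1 describe culture and selection with puromycin, an antibiotic used to keep cells that carry a resistance gene, and those of replicates 2 and 3 describe medium with serum. The 4 arrays of replicate 1 and the 8 others are therefore called the 2 labelled sets. No empty vector is described for the controls, nor the promoter that drives CANT1, nor whether the cells are pools or clones, so an effect of CANT1 and one of vector or selection cannot be told apart. Whether the replicates were grown as separate cultures is not given in the labels. Every p-value below is thus a measure of array-to-array spread, which may be technical, and the number of arrays limits the precision.

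Interferons are secreted proteins made by cells that sense viral nucleic acid. Type I interferon binds IFNAR1 and IFNAR2, which act through the kinases JAK1 and TYK2 on a complex of STAT proteins and IRF9. That complex binds the interferon-stimulated response element (ISRE) in the promoters of its target genes, while gamma interferon acts through the gamma-activated site (GAS). The products of these genes sense viral RNA, degrade it, hold viruses at membranes, or attach ISG15, a small protein related to ubiquitin. Many tumour cell lines express part of this program with no interferon added.

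The promoter windows of 6 of the genes described most below are printed to show the elements through which interferon acts on this family. They come from RefSeq on build GRCh38.p14 and run from 250 bases before to 50 bases after an annotated start site, 5′ to 3′ in the direction of the gene. For ISG20 and IFI27 that site lies inside the annotated gene, which begins at 88635632 and 94105894. Capitals mark matches to the ISRE letters, GAAA followed by NN and a second GAAA, on either strand and to the GAS letters TTCNNNGAA, which read the same on both strands. The matches to the 2 motifs overlap in IFITM1, BST2 and IFI27, and IFI27 has a second annotated window that is not printed.
IFITM1 (chr11:313790-314089, plus strand): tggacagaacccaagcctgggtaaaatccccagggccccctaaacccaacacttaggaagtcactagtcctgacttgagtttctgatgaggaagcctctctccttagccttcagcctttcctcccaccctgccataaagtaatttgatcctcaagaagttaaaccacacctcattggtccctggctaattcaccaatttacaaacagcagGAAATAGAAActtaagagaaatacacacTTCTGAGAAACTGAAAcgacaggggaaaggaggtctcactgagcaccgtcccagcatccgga
BST2 (chr19:17405581-17405880, minus strand): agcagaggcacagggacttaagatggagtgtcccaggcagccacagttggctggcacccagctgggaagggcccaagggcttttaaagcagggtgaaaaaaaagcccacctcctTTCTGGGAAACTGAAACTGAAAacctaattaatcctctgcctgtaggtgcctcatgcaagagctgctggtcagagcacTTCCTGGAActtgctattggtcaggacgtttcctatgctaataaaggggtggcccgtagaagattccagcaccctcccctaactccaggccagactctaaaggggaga
IFI6 (chr1:27672143-27672442, minus strand): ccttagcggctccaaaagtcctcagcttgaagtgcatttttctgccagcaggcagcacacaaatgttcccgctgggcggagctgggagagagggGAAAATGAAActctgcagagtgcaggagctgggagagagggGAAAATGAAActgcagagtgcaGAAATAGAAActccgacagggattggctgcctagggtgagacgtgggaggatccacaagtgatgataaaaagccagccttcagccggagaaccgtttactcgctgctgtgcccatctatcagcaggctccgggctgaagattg
ISG20 (chr15:88638766-88639065, plus strand): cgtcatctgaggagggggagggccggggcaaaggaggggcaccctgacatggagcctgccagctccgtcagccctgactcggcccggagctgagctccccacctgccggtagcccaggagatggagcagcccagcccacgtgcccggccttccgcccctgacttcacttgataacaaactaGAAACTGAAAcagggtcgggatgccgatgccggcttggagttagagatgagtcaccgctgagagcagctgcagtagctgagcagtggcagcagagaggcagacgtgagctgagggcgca
IFI27 (chr14:94110486-94110785, plus strand): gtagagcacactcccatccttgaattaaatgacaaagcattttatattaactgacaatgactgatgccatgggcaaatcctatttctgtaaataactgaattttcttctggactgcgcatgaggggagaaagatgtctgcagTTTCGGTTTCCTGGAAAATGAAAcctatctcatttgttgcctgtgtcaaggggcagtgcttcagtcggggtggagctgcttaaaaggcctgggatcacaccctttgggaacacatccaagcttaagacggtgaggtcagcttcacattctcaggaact
IRF9 (chr14:24161015-24161314, plus strand): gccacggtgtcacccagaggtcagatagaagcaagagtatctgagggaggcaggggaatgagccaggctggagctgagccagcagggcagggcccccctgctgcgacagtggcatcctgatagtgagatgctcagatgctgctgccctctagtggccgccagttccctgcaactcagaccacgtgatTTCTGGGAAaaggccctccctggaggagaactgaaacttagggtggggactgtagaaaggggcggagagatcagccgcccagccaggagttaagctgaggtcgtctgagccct

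Of the 48 listed genes, 38 had at least 1 such window. An ISRE match was present in 27 of the 38 (71.1%), against 4.38% of 27305 genes with a window and 3.57% of 35116 windows in all. A GAS match was present in 12 of the 38 (31.6%), against 9.38% of genes and 7.66% of windows. BST2 held 2 ISRE matches that overlap each other, IFI6 had 3 separate ones, and ISG20 had 1. IRF9 had a GAS match and no ISRE match in its window. A match describes letters only, and the missing match in IRF9 says nothing about which factors bind there.

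**Figure D1:**
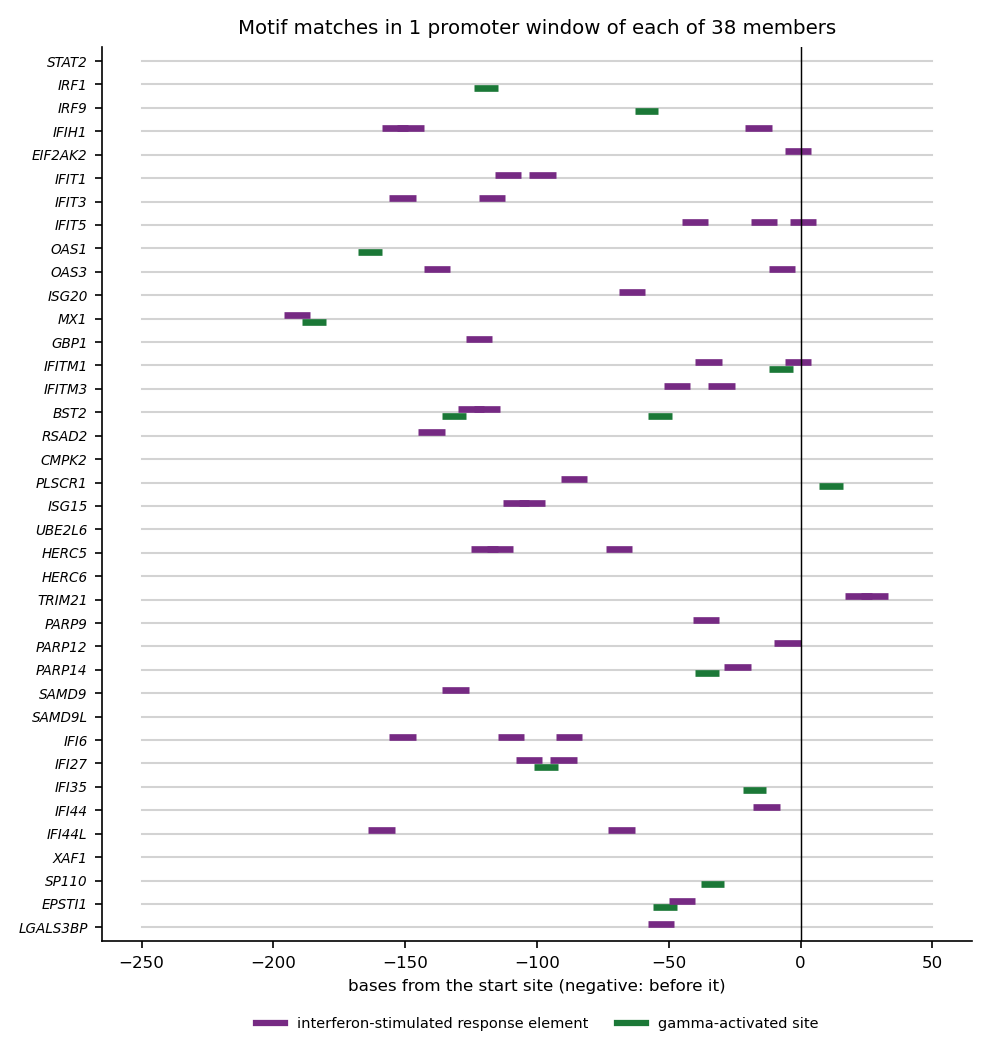
Matches to the ISRE (purple) and GAS (green) letters in 1 promoter window of each of the 38 listed genes with a window, drawn by distance in bases from the annotated start site (0, vertical line). Where a gene has several windows, the one with the most matches is shown. Windows with neither motif are plain grey lines, and 27 of the 38 genes carry an ISRE match in at least 1 window.

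Signals are the deposited log2 values taken back to a linear scale and brought to a common trimmed mean of 500 on each array. Differences are given on the scale log2(signal + 32), which understates the fold where signals are low, and each ± is the limma standard error. The replicates 2 and 3 of a group correlated at r = 0.9962 to 0.9972 across genes. OCM1 wild type replicate 1 stood apart, at a mean r of 0.902 with the other OCM1 arrays, where every other array had 0.963 to 0.987 with its own line. Pigment cell markers summed to less on that array than on the other OCM1 arrays, though to far more than in MUM2B. Of the 8 listed markers 7 were measured. Their summed signal was 71817, 74776 and 76868 on the OCM1 CANT1 arrays and 13730, 74250 and 71778 on the OCM1 wild type arrays. Whether that array is labelled rightly was not tested. In MUM2B the same markers summed to only 640 to 876 on all 6 arrays, with MLANA, a melanosome antigen, at 36.4 to 55.7, so defining pigment cell markers of the labelled tumour type were near background there. On replicates 2 and 3, 2 of the 7 were higher in OCM1 CANT1 cells, PMEL by 0.46 and S100B by 0.56, and 1 was lower, the pigment enzyme TYRP1, which fell by 2.67 ± 0.11 (limma adjusted p = 1.10e-07). In MUM2B CANT1 cells 1 of the 7 was higher and 0 lower. Immune cell markers summed to 434 to 606 over all arrays, with PTPRC, the pan-leukocyte marker CD45, at no more than 18.1. Endothelial markers, of which 4 of 4 were tested, summed to 3225, 4651 and 5098 in MUM2B CANT1 cells and 4209.7, 2774 and 3307 in MUM2B wild type cells, and to 396 to 529 in OCM1. Most of the MUM2B sum was CDH5, at 2394 to 4651 in MUM2B and 46.8 to 87.6 in OCM1. VWF was at 113 to 227 in MUM2B and 152 to 211 in OCM1, and KDR at 116 to 199 and 92.2 to 134. In MUM2B CDH5 rose by 0.72 and KDR by 0.42 on replicates 2 and 3, and TCF4, the 1 tested marker of plasmacytoid dendritic cells, by 0.58. The other markers of those cells were dim, with CLEC4C at 19.1 to 26.0 and IL3RA at 27.6 to 57.7 on all arrays. LILRA4 was not measured, so TCF4 alone does not show such cells. The CANT1 difference on replicate 1 was lower than that on replicates 2 and 3 for 3 of the 4 endothelial markers and for TCF4, so these moved with the members of MUM2B described below, and their part in that was not tested. Fibroblast markers summed to 374 on OCM1 wild type replicate 1, against 1528 to 1724 on the other OCM1 arrays. That gap lay in LUM, at 62.5 there and 1227 to 1443 on the other OCM1 arrays. COL1A1, COL1A2 and DCN stayed under 100 on every array. PDGFRB was at 137 there, against 98.5 to 131 on the other OCM1 arrays. Of the 5 fibroblast markers 2 were tested, and neither passed on replicates 2 and 3 in either line. CASC15 itself had 1 probe set, at 12.9 to 17.98 on all arrays, which need not lie in the CANT1 transcript and so checks nothing.

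CANT1 cells had higher levels of many interferon-stimulated genes than wild type cells on the arrays of replicates 2 and 3, in each line with a different leading set. In OCM1 the leader was BST2, the membrane tether tetherin, at 11.6-fold, followed by the membrane protein IFITM1 and the mitochondrial protein IFI6 at 2.20-fold each. In MUM2B the leaders were ISG20, an exonuclease that degrades RNA, the GTPase GBP2 and IFI27, at 2.99-fold, 2.85-fold and 2.67-fold on this scale. On the deposited scale without the offset GBP2, dim in wild type cells, came first (2.22, against 1.83 for ISG20). In a limma fit across 12380 genes, 11 of 37 tested members were higher and 2 lower in OCM1 CANT1 cells, where 13.9% of all genes tested were called higher and 9.48% lower. In MUM2B, 15 of the 37 were higher and 0 lower, where 14.2% of all genes were called higher and 10.3% lower. As shares of the members tested, these are 29.7% higher in OCM1 and 40.5% higher in MUM2B. The median difference over the members was 0.26 in OCM1 and 0.34 in MUM2B, beside 0.04 and 0.0045 over all genes. In bulk RNA, more cells expressing a gene and more RNA per cell cannot be told apart.

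Of the members that rose, 3 reached 2-fold in OCM1 and 9 in MUM2B, where 1.48% and 1.32% of all genes did so. The members higher in both lines were BST2, GBP2, IFITM1, IRF9 and OASL, which make up 45.5% of the 11 raised in OCM1 and 33.3% of the 15 raised in MUM2B. BST2 was under the filter signal on every MUM2B array and was tested there through OCM1. Without it 14 members were higher in MUM2B and 4 in both lines, 36.4% of the OCM1 and 28.6% of the MUM2B list. The 9 measured members that stayed below the filter of signal 100 on at least 2 of the 8 arrays were OAS1, OAS3, MX1, MX2, RSAD2, SAMD9L, IFI44L, XAF1 and EPSTI1. Of these, all but OAS1 and SAMD9L stayed under 100 on every one of the 12 arrays. Several are among the genes best known for induction by type I interferon: MX1 and MX2 encode antiviral GTPases and RSAD2 the antiviral enzyme viperin. The 13 calls in OCM1 came to 5 without CANT1 replicate 2, 8 without CANT1 replicate 3 and 4 without wild type replicate 3, where 11.3%, 16.4% and 13.6% of all genes were called.

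**Figure D2:**
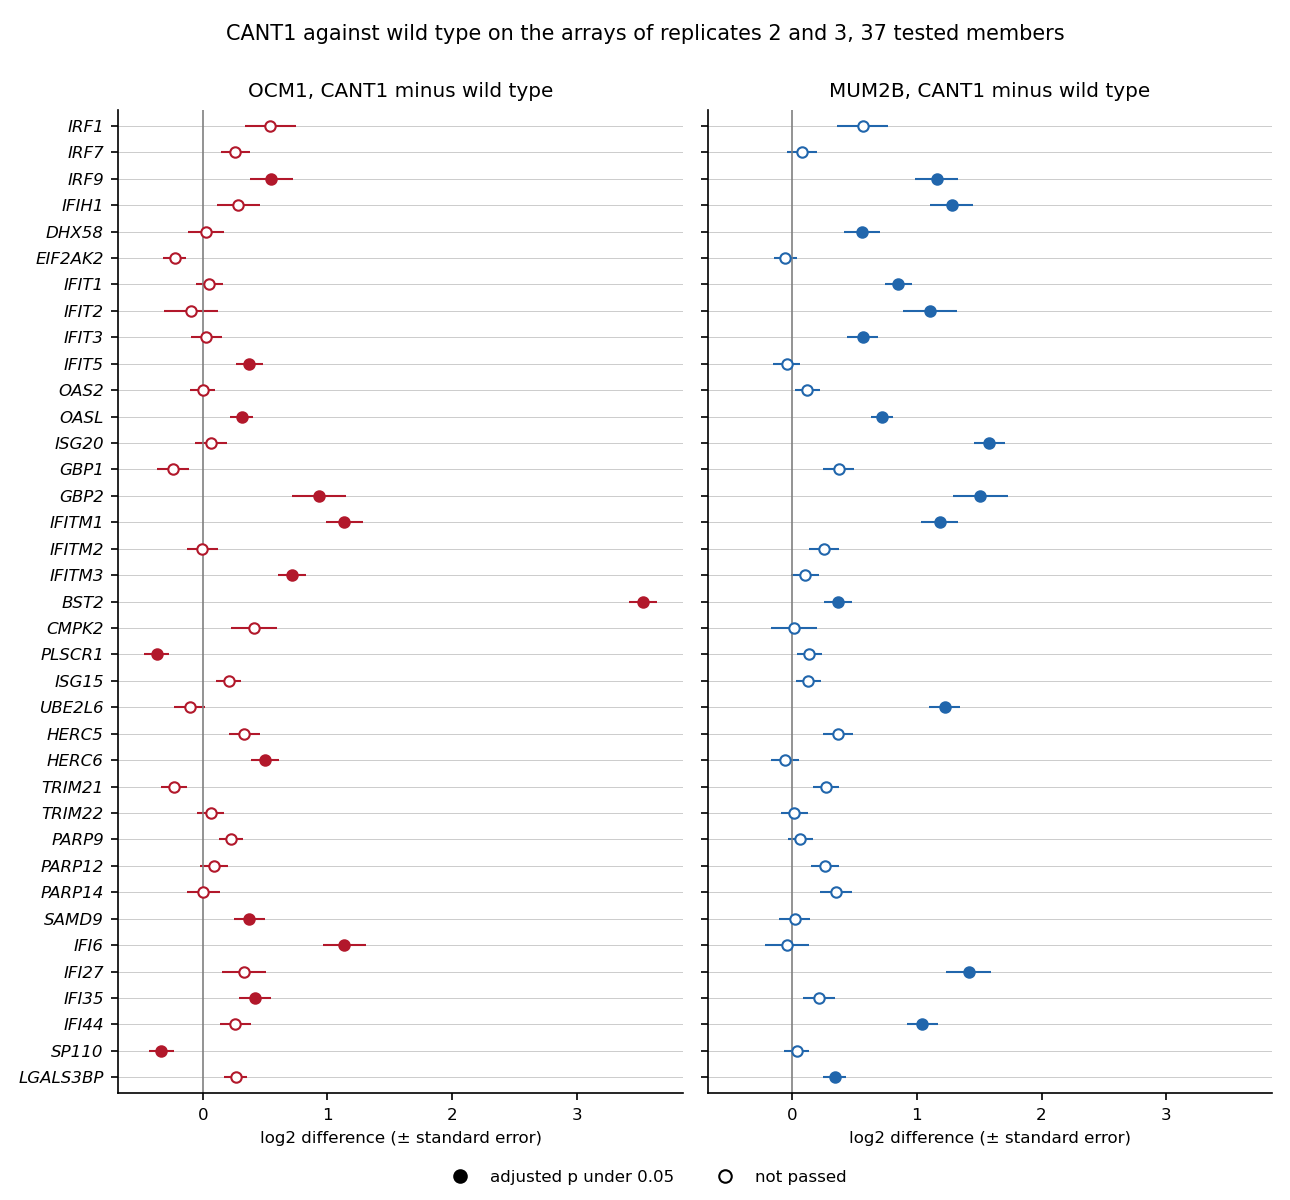
Difference between CANT1 and wild type cells on the arrays of replicates 2 and 3 for the 37 tested members, in OCM1 (left) and MUM2B (right), as log2 difference with its standard error (n = 2 arrays per group). Filled points passed at a limma adjusted p under 0.05: 13 in OCM1, with BST2 far above the rest, and 15 in MUM2B, all above 0.

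Among the interferon transcription factors, IRF9, the DNA-binding subunit that completes the STAT complex, was higher in CANT1 cells of both lines on replicates 2 and 3. Its signal on replicates 1, 2 and 3 was 451, 765 and 722 in OCM1 CANT1 cells, against 243, 466 and 531 in OCM1 wild type cells. In MUM2B it was 351, 550.1 and 829.9 in CANT1 cells, against 923, 246 and 331 in wild type cells. The groups overlapped in both lines: OCM1 CANT1 replicate 1 lay below both later wild type arrays, and MUM2B wild type replicate 1 was the highest array of its line. On replicates 2 and 3 the difference was 0.55 ± 0.17 in OCM1 (limma adjusted p = 0.0416) and 1.16 ± 0.17 in MUM2B (adjusted p = 0.00137). The other 3 probe sets of IRF9 read lower values in MUM2B, 0.44 to 0.82. In OCM1 IRF9 no longer passed when any 1 of the 4 OCM1 arrays was left out (0.46 to 0.64).

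IRF1, a factor induced mainly by gamma interferon, did not pass in either CANT1 comparison. Its signal was 168, 217 and 198 in OCM1 CANT1 cells and 175, 111 and 156 in OCM1 wild type cells, and 755, 695 and 925 in MUM2B CANT1 cells and 1079, 416 and 675 in MUM2B wild type cells. The difference on replicates 2 and 3 was 0.54 ± 0.20 in OCM1 and 0.57 ± 0.20 in MUM2B (limma adjusted p = 0.0794 and 0.0658). In MUM2B IRF1 passed in 4 of 16 alternatives, among them those without CANT1 replicate 2 (0.77) or wild type replicate 3 (0.90). In OCM1 it passed in 5 of 17, among them those without MUM2B wild type replicate 2 or 3, at an unmoved difference. Every OCM1 array lay below every MUM2B array. IRF7, the factor that amplifies production of type I interferon, was at 250.2, 274 and 275 in OCM1 CANT1 cells and at 113, 209 and 239.7 in OCM1 wild type cells. In MUM2B it was at 248, 199.6 and 249.8 in CANT1 cells and at 289, 226 and 195 in wild type cells. The OCM1 groups did not overlap, yet the fits on replicates 2 and 3 gave 0.26 ± 0.12 in OCM1 and 0.08 ± 0.12 in MUM2B (limma adjusted p = 0.136 and 0.69).

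Both RNA sensors of the group were higher in CANT1 cells of MUM2B on replicates 2 and 3, and lower on replicate 1 (IFIH1 −0.92, DHX58 −0.39). IFIH1, which encodes the cytoplasmic double-stranded RNA sensor MDA5, had signals of 270.2, 262 and 328 in MUM2B CANT1 cells, against 539.8, 79.4 and 129 in MUM2B wild type cells. Here too wild type replicate 1 was the highest array of the line, and the 2 other wild type arrays lay below every CANT1 array. IFIH1 rose by 1.28 ± 0.17 on replicates 2 and 3 (limma adjusted p = 0.000918). In OCM1 it had 273, 461 and 506 in CANT1 cells against 126, 446 and 342 in wild type cells, at 0.29 ± 0.17 (adjusted p = 0.269). DHX58, the related regulator LGP2, rose by 0.56 in MUM2B and stood at 0.03 in OCM1, where it did not pass. The rise of DHX58 in MUM2B did not pass without CANT1 replicate 3 (0.35) or wild type replicate 3 (0.43). EIF2AK2, the kinase PKR that halts translation on viral RNA, passed in neither line, at −0.06 in MUM2B and −0.22 in OCM1.

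Of the 4 IFIT genes, whose family includes proteins that bind viral RNA by its 5′ end, IFIT1, IFIT2 and IFIT3 rose in MUM2B CANT1 cells and only IFIT5 rose in OCM1 CANT1 cells, on replicates 2 and 3. IFIT2 had 887, 475 and 625 in MUM2B CANT1 cells, against 1434, 167 and 327 in MUM2B wild type cells. In OCM1 it was dim, at 188, 133 and 125 in CANT1 cells, against 57.6, 140.4 and 138 in wild type cells. The MUM2B difference was 1.11 ± 0.22 (limma adjusted p = 0.00458) and the OCM1 difference −0.09 ± 0.22 (adjusted p = 0.81). IFIT1 rose by 0.85 and IFIT3 by 0.57 in MUM2B, and stood at 0.05 and 0.03 in OCM1. IFIT5 stood at −0.04 in MUM2B and rose by 0.37 in OCM1. In MUM2B IFIT2 no longer passed without CANT1 replicate 3 (0.92), nor IFIT3 without CANT1 replicate 3 (0.43) or wild type replicate 2 (0.44). In OCM1 IFIT5 did not pass without CANT1 replicate 3 (0.25), wild type replicate 2 (0.39) or wild type replicate 3 (0.36).

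The OAS enzymes make the short adenylate chains that switch on RNase L, and most of them were dim. OASL, a relative without that activity, rose in both lines, by 0.31 in OCM1 and 0.72 in MUM2B, although in OCM1 it did not pass with any 1 of the 4 OCM1 arrays left out (0.28 to 0.34). OAS2 did not pass, at −0.0013 in OCM1 and 0.12 in MUM2B, and OAS1 and OAS3 were below the filter. ISG20 had 590.2, 343 and 429.7 in MUM2B CANT1 cells, against 928, 95.7 and 119.8 in MUM2B wild type cells. On replicates 2 and 3 the arrays were far apart, and wild type replicate 1 was again the highest of the 6. The difference there, 1.58 ± 0.12 (limma adjusted p = 6.56e-05), was the largest of any member in MUM2B on this scale, though not on the deposited scale, where GBP2 exceeded it. In OCM1 ISG20 had 271, 57.6 and 62.3 in CANT1 cells and 87.4, 51.5 and 60.3 in wild type cells, at 0.07 ± 0.12 on replicates 2 and 3 (adjusted p = 0.752).

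Among the large GTPases, GBP2, a guanylate-binding protein that coats intracellular pathogens, was higher in CANT1 cells of both lines. Its signal was 247, 289 and 294 in OCM1 CANT1 cells, against 33.5, 146 and 129.7 in OCM1 wild type cells, with no overlap. In MUM2B it was 115, 109.9 and 212 in CANT1 cells, against 1004, 23 and 45.6 in wild type cells. Wild type replicate 1 exceeded every other array of MUM2B, while the other 2 wild type arrays were near background. On replicates 2 and 3 the difference was 0.93 ± 0.22 in OCM1 (limma adjusted p = 0.0103) and 1.51 ± 0.22 in MUM2B (adjusted p = 0.00112). In OCM1 GBP2 fell short without CANT1 replicate 2 (0.94, adjusted p = 0.0538) or wild type replicate 3 (0.86, adjusted p = 0.0707). The second GBP2 probe set gave 0.56 in OCM1 and 0.62 in MUM2B. GBP1 passed in neither line, at −0.24 in OCM1 and 0.37 in MUM2B, and MX1 and MX2 were below the filter.

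BST2 gave the largest difference of the family. It encodes tetherin, which holds budding enveloped viruses at the cell surface. Its signal was 857, 2259 and 2761 in OCM1 CANT1 cells, against 414, 194 and 180.4 in OCM1 wild type cells. Every CANT1 array lay above every wild type array, on replicate 1 by the smaller margin. On replicates 2 and 3 the difference was 3.53 ± 0.11 (limma adjusted p = 8.97e-09, 2 arrays per group). The other bright probe sets gave 3.28 and 3.32, and a dim one, with no signal above 17.8, gave 0.06. In MUM2B BST2 was dim, at 50.3, 47.8 and 45.6 in CANT1 cells, against 70.8, 25.8 and 32.1 in wild type cells, and it rose by 0.37 ± 0.11 on replicates 2 and 3 (adjusted p = 0.0337). The other probe sets gave 0.16, 0.01 and 0.0006 in MUM2B. That MUM2B call was lost without CANT1 replicate 2 (0.35), CANT1 replicate 3 (0.39) or wild type replicate 2 (0.29).

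IFITM1, which blocks virus entry at the cell membrane, rose by nearly the same amount in both lines on replicates 2 and 3. In OCM1 it had 307, 731 and 712 in CANT1 cells, against 2232, 318 and 304 in wild type cells. In MUM2B it had 203, 316 and 411 in CANT1 cells, against 855, 116 and 170.0 in wild type cells. In both lines the wild type array of replicate 1 was the highest of the 6 and the CANT1 array of replicate 1 the lowest of the 3 CANT1 arrays. The difference on replicates 2 and 3 was 1.14 ± 0.15 in OCM1 (limma adjusted p = 0.00039) and 1.18 ± 0.15 in MUM2B (adjusted p = 0.000677), and the second probe set gave 1.19 and 1.14.

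IFITM3, which acts in endosomes, rose in OCM1. It had 1775, 2970.3 and 3367 in OCM1 CANT1 cells, against 289, 1746 and 2084 in OCM1 wild type cells. In MUM2B it had 5233, 5763 and 5801 in CANT1 cells, against 6336, 5132 and 5619.9 in wild type cells. The difference was 0.72 ± 0.11 in OCM1 (limma adjusted p = 0.00111) and 0.11 ± 0.11 in MUM2B (adjusted p = 0.547). IFITM2 passed in neither line, at −0.0027 in OCM1 and 0.26 in MUM2B. The IFITM genes are close in sequence and the IFITM2 and IFITM3 probe sets are of a type that may also pick up related transcripts, so the 3 genes may share signal. The probe sets used for IFIT3, OASL, GBP1 and IFI27 are of the same type. PLSCR1, a phospholipid scramblase, was 1 of 2 members that fell: it had 4174, 2528 and 2783 in OCM1 CANT1 cells, against 1716, 3461 and 3416 in OCM1 wild type cells, at −0.37 ± 0.10 on replicates 2 and 3 (adjusted p = 0.0208). On replicate 1 the CANT1 array was the higher one, and PLSCR1 did not pass without CANT1 replicate 2 (−0.30), wild type replicate 2 (−0.36) or wild type replicate 3 (−0.38).

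In the ISG15 system, UBE2L6, the enzyme that carries ISG15 to its targets, was raised in MUM2B CANT1 cells. UBE2L6 had 1543, 1789 and 1831 in CANT1 cells, against 2109.6, 655 and 873 in wild type cells. It rose by 1.22 ± 0.12 on replicates 2 and 3 (limma adjusted p = 0.000229), with wild type replicate 1 above all CANT1 arrays. In OCM1 it had 1633, 2022 and 2060.4 in CANT1 cells, against 472, 2103 and 2298 in wild type cells, and stood at −0.11 ± 0.12 (adjusted p = 0.59). ISG15 itself did not pass, at 0.21 in OCM1 and 0.13 in MUM2B. HERC6, a ligase of the HERC family, rose by 0.50 in OCM1, but not past the threshold without CANT1 replicate 2 (0.40) or wild type replicate 3 (0.42). HERC5, the ligase that attaches ISG15, stood at 0.33 in OCM1 and 0.37 in MUM2B without passing (adjusted p = 0.0769 and 0.0512). In MUM2B it was dim on replicates 2 and 3, at 51.9 and 79.6 in CANT1 cells and 44.1 and 41.8 in wild type cells. All of these lay under the filter signal, and HERC5 was tested there through OCM1. TRIM21 and TRIM22, of the tripartite motif family, passed in neither line.

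None of the 4 tested PARP and SAMD9 genes rose in MUM2B. SAMD9, an antiviral factor that restricts translation, rose by 0.37 ± 0.12 in OCM1 (limma adjusted p = 0.0495). SAMD9 did not pass without OCM1 CANT1 replicate 2 (0.25), OCM1 wild type replicate 2 (0.45) or 3 (0.30), or MUM2B wild type replicate 2 or 3 (0.37 each). PARP9, PARP12 and PARP14, ADP-ribosyltransferase family members, did not pass in either line on replicates 2 and 3.

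The remaining induced proteins again divided by line. IFI6, which restrains mitochondrial cell death, had 756, 2054 and 3251 in OCM1 CANT1 cells, against 264, 1055 and 1276 in OCM1 wild type cells. Within each labelled set the CANT1 arrays were higher, although CANT1 replicate 1 lay below both later wild type arrays. The difference on replicates 2 and 3 was 1.13 ± 0.17 in OCM1 (limma adjusted p = 0.00103). In MUM2B IFI6 was flat, at 285, 259 and 246 in CANT1 cells and 248, 256 and 265 in wild type cells.

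IFI27, a small mitochondrial protein and a widely used interferon marker, had 979.6, 1220.3 and 1146 in MUM2B CANT1 cells, against 1714, 357 and 501 in MUM2B wild type cells. It rose by 1.42 ± 0.18 on replicates 2 and 3 (limma adjusted p = 0.000672), and its other probe set gave 0.79. In OCM1 it had 195, 211 and 249 in CANT1 cells and 421, 141 and 217 in wild type cells, at 0.33 ± 0.18 (adjusted p = 0.205). IFI44 rose by 1.04 (0.41 as the mean over its probe sets) and LGALS3BP, a secreted glycoprotein, by 0.34 in MUM2B. LGALS3BP did not pass without CANT1 replicate 3 (0.28), wild type replicate 2 (0.31) or wild type replicate 3 (0.37). IFI35, which binds the regulator NMI, rose by 0.42 in OCM1, but did not pass without CANT1 replicate 2 (0.50), CANT1 replicate 3 (0.34) or wild type replicate 3 (0.26). SP110, a nuclear body protein, was the other member that fell: it had 289.8, 336 and 359.8 in OCM1 CANT1 cells, against 104, 417 and 477 in OCM1 wild type cells, at −0.33 ± 0.10 on replicates 2 and 3 (adjusted p = 0.0318). Its probe sets ran from −0.41 to 0.42 there, so its direction depends on which is read. SP110 did not pass without CANT1 replicate 2 (−0.29), CANT1 replicate 3 (−0.38) or wild type replicate 3 (−0.24).

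**Figure D3:**
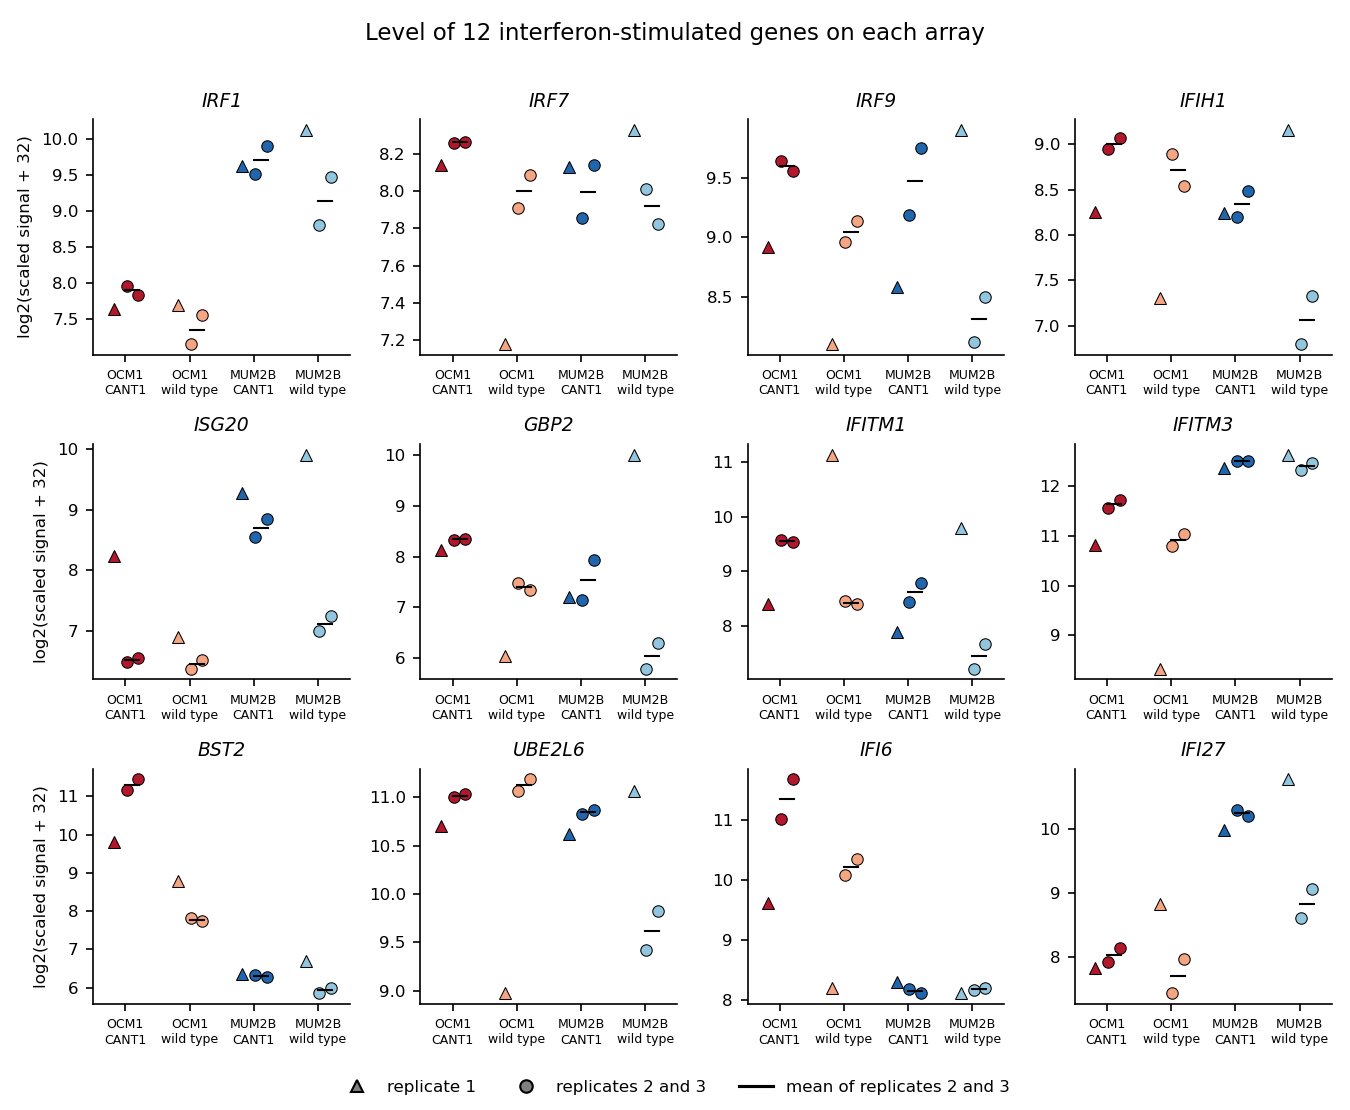
Level of 12 members on each array, as log2(scaled signal + 32), with OCM1 CANT1, OCM1 wild type, MUM2B CANT1 and MUM2B wild type from left to right. Triangles are replicate 1, circles replicates 2 and 3, and the bar is the mean of replicates 2 and 3. In MUM2B the wild type triangle lies above the wild type circles for all 12 members except IFI6.

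The labelled sets gave opposite results in MUM2B. On replicate 1, the CANT1 array was below the wild type array for 30 of 38 members, with a median difference of −0.28, beside −0.07 over all genes. Of the 15 members higher on replicates 2 and 3, only IFI44 was also higher on replicate 1 and 14 were lower. The sign was the same in both sets for 8 of 38 members (21.1%), against 33.0% of all genes tested. In a limma fit with a term for each group in each set, the CANT1 difference on replicate 1 was lower than that on replicates 2 and 3 for 19 members and higher for 3, where 18.1% and 17.7% of all genes were called and 35.8% in either direction. The single replicate 1 arrays are assumed in that fit to vary like the others. The largest gaps were for GBP2 (−4.33 ± 0.37, limma adjusted p = 3.33e-05), IFITM1 (−3.10 ± 0.26, adjusted p = 3.14e-05) and IRF9 (−2.48 ± 0.30, adjusted p = 0.000148). The highest MUM2B level fell on wild type replicate 1 for 24 of 38 members and 40.8% of all genes, and the lowest on wild type replicate 2 for 21 members and 22.2% of all genes.

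In OCM1 the sets agreed in sign for 25 of 38 members (65.8%), against 42.5% of all genes. On replicate 1 the CANT1 array was above the wild type array for 30 of 38 members (78.9%), against 43.1% of all genes, with a median difference of 0.95, beside −0.05 over all genes. Of the 11 members higher on replicates 2 and 3, 8 were also higher on replicate 1, and IFITM1, IFIT5 and HERC6 were lower. All of these replicate 1 values rest on OCM1 wild type replicate 1, the array that stood apart, which held the lowest OCM1 level for 24 of the 38 members and 28.6% of all genes, and the highest for 5 members and 41.0% of all genes. No replicate 1 value can be had in OCM1 without it.

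The size of the OCM1 differences was unequal between the sets, with 19 members further up on replicate 1 and 5 further down, where 20.4% and 27.6% of all genes were called. PARP9, which forms a complex with the ubiquitin ligase DTX3L, had 1869, 1996 and 2009 in OCM1 CANT1 cells, against 85.7, 1842 and 1578 in OCM1 wild type cells, and 301, 275 and 265 in MUM2B CANT1 cells, against 254, 256 and 257 in MUM2B wild type cells. PARP14 had 1012, 702 and 856 in OCM1 CANT1 cells, against 67.2, 804 and 743 in OCM1 wild type cells, and 1547, 1011 and 1152 in MUM2B CANT1 cells, against 2851, 752 and 935 in MUM2B wild type cells. For both genes the OCM1 wild type array of replicate 1 alone was low in that line. The CANT1 difference on replicate 1 exceeded that on replicates 2 and 3 by 3.79 ± 0.17 for PARP9 (limma adjusted p = 1.77e-08) and 3.39 ± 0.23 for PARP14 (adjusted p = 3.54e-07). For IFITM1 it was lower by the largest amount, at −3.88 ± 0.26 (adjusted p = 3.48e-07). The other PARP9 probe sets gave replicate 1 differences of 0.55 and 1.27 where the one used gave 4.01, and those of PARP14 gave 0.39 to 2.37 where the one used gave 3.40. As means over all probe sets the gaps were 1.82 for PARP9 and 1.57 for PARP14. BST2 rose in both sets, by 1.00 on replicate 1 and 3.53 on the others, and the gap was −2.53 ± 0.19 (adjusted p = 1.03e-06). The other bright BST2 probe sets gave 1.86 and 1.93 on replicate 1, and the mean over its probe sets gave a gap of −1.36.

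**Figure D4:**
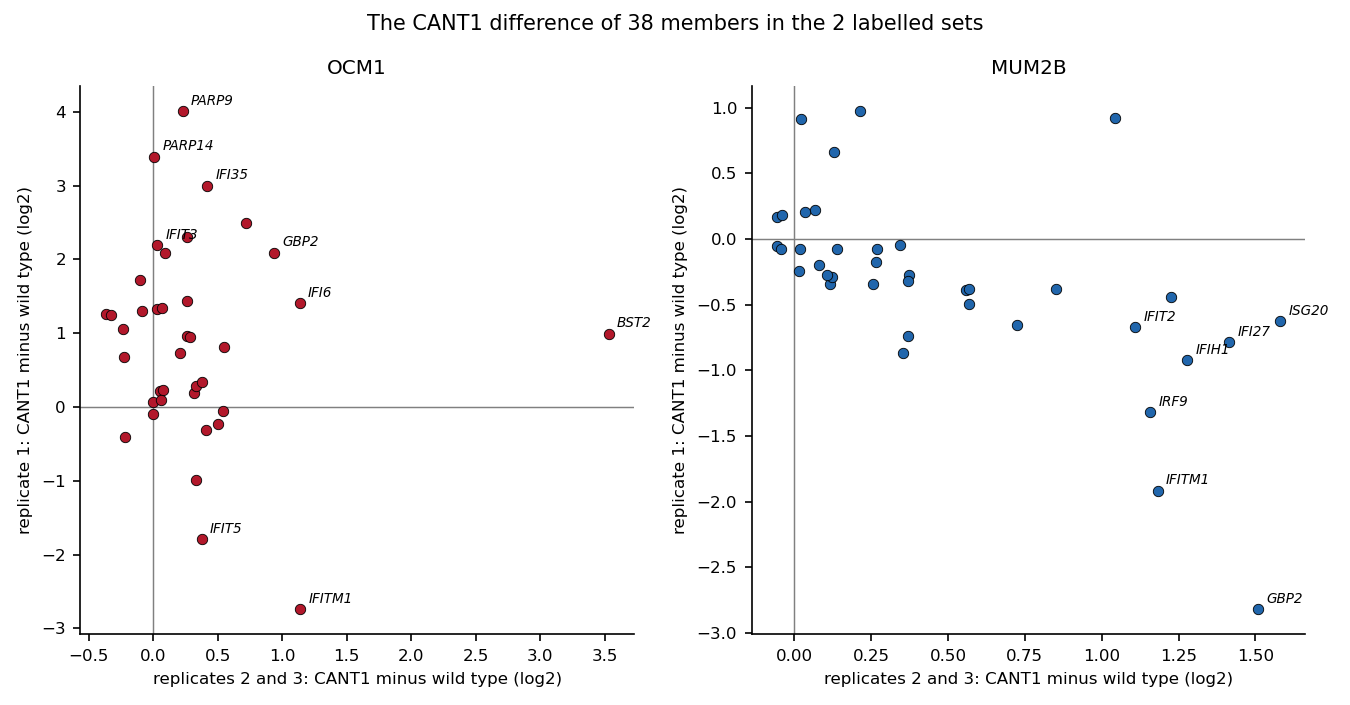
CANT1 minus wild type for 38 members in OCM1 (left) and MUM2B (right), with the difference on replicates 2 and 3 on the horizontal axis and that on replicate 1 on the vertical axis, both in log2. In OCM1 30 points lie above 0 on the vertical axis, while in MUM2B 30 lie below it.

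With all 12 arrays and a term for the labelled set, no member passed in either line. In MUM2B limma called 0 of 38 members, beside 0.00% of all 12722 genes tested, and 0 members had an unadjusted p under 0.05, beside 219 genes. In OCM1 it called 0 of 38, beside 0.102% of genes in either direction (0.0943% higher and 0.00786% lower), and 5 members had an unadjusted p under 0.05: BST2, IFITM3, IFI35, IFI6 and EIF2AK2. BST2 came closest, at 2.69 ± 0.44 (limma adjusted p = 0.0697). It passed without OCM1 wild type replicate 1 (3.10, adjusted p = 0.0132), without OCM1 CANT1 replicate 1 (3.39, adjusted p = 0.000494) and without MUM2B wild type replicate 1 (2.69, adjusted p = 0.0391). The 3 CANT1 arrays lay above the 3 wild type arrays of OCM1 for 8 members and below for 0, where 6.45% and 5.01% of all genes did so. In MUM2B they lay above for 2 members and below for 0, where 2.82% and 1.95% of all genes did so.

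**Figure D5:**
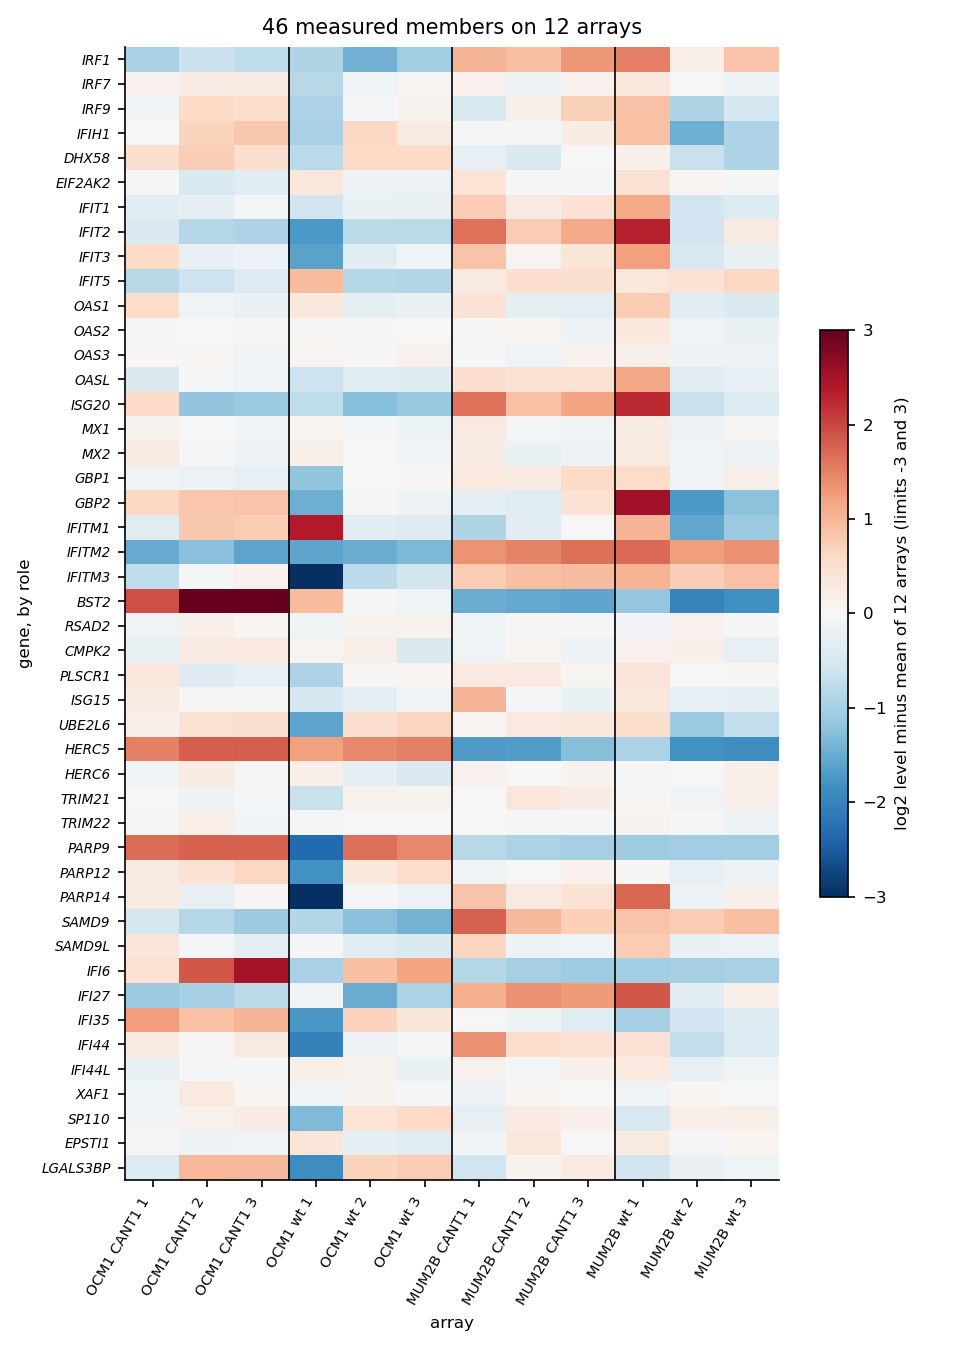
Level of the 46 measured members on the 12 arrays, as log2(scaled signal + 32) minus the mean of that gene over the arrays (red above, blue below, colours limited at −3 and 3). Columns run OCM1 CANT1, OCM1 wild type, MUM2B CANT1 and MUM2B wild type (wt), replicates 1 to 3 in each, and rows are ordered by role. The column of OCM1 wild type replicate 1 is the lowest of its line for 24 of 38 tested members, and that of MUM2B wild type replicate 1 the highest of its line for 24.

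The CANT1 difference itself was unequal between the lines for 16 of the 37 members on replicates 2 and 3: it was higher in OCM1 than in MUM2B for 4 and lower for 12, where 11.4% and 10.6% of all genes were called. BST2 led the first direction, at 3.16 ± 0.16 (limma adjusted p = 1.28e-06), with IFI6, IFITM3 and HERC6 after it. ISG20 led the other, at −1.51 ± 0.18 (adjusted p = 0.000328), followed by UBE2L6, IFIT2 and IFI27. ISG20 was at only 51.5 to 62.3 on the OCM1 arrays of replicates 2 and 3, under the filter signal, and was tested there through MUM2B. BST2 was likewise under it on every MUM2B array. A change at such dim levels is understated on this scale, so for these 2 genes the contrast rests mainly on the brighter line. IFITM1 was close to equal, at −0.05 ± 0.21 (adjusted p = 0.908). The count of 16 came to 10 without MUM2B CANT1 replicate 3, MUM2B wild type replicate 2, OCM1 CANT1 replicate 2 or OCM1 wild type replicate 2, and to 9 without OCM1 wild type replicate 3. IFIT2 was lost without MUM2B CANT1 replicate 3 (−1.01) or OCM1 wild type replicate 3 (−1.21), and IFITM3 without MUM2B wild type replicate 3 (0.55), OCM1 CANT1 replicate 3 (0.52) or OCM1 wild type replicate 2 (0.49). HERC6 was lost without MUM2B CANT1 replicate 2 (0.50), MUM2B wild type replicate 3 (0.47), OCM1 CANT1 replicate 2 (0.46) or OCM1 wild type replicate 3 (0.48).

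Wild type OCM1 and MUM2B cells differed in 10 of 38 members over the 12 arrays: 3 were higher in OCM1 and 7 lower, where 19.0% and 13.9% of all genes were called. HERC5 had 602, 701 and 735 in OCM1 wild type cells, against 107, 44.1 and 41.8 in MUM2B wild type cells, a difference of 2.94 ± 0.24 (limma adjusted p = 1.97e-05). BST2 was higher in OCM1 by 1.94 ± 0.44 (adjusted p = 0.00825) and IFI6 by 1.38 ± 0.45 (adjusted p = 0.0398). BST2 was under the filter signal on every MUM2B array, and HERC5 on all of them but wild type replicate 1. Both genes thus entered the comparisons of the lines through OCM1, where they are high. The IFI6 arrays of the lines overlapped, since OCM1 wild type replicate 1 was at 264, within the 248 to 265 of MUM2B. IFI6 no longer passed without OCM1 wild type replicate 2 (1.25) or 3 (1.11), MUM2B wild type replicate 2 (1.22) or 3 (1.24), or the CANT1 array of replicate 2 in either line (1.38). With the replicate number as a block neither IFI6 (1.38, adjusted p = 0.0579) nor IFIT2 below (−1.77, adjusted p = 0.0514) passed.

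IFITM2 had 743, 790.2 and 879 in OCM1 wild type cells, against 7487, 5504 and 5994 in MUM2B wild type cells, at −2.92 ± 0.15 (limma adjusted p = 9.14e-07). SAMD9 had 132, 93.1 and 80.6 in OCM1 wild type cells, against 515, 474 and 531 in MUM2B wild type cells, at −2.02 ± 0.18 (adjusted p = 3.17e-05). Neither gene overlapped between the lines, as was so of 7 members wholly below and 2 wholly above in OCM1, where 13.7% and 18.9% of all genes were so placed. IFITM3 was at −2.42 ± 0.48 (adjusted p = 0.0042), IRF1 at −1.99 ± 0.28 (adjusted p = 0.000527) and IFIT2 at −1.77 ± 0.56 (adjusted p = 0.0345). The IFITM2 and IFITM3 probe sets may share signal, as stated above. ISG20, at −1.45 ± 0.43 (adjusted p = 0.0273), and IFI27, at −1.40 ± 0.43 (adjusted p = 0.0323), were the other members lower in OCM1. On every OCM1 array but CANT1 replicate 1, ISG20 was under the filter signal, so it entered the comparisons of the lines through MUM2B. Without MUM2B wild type replicate 1, IFIT2 stood at −0.98, ISG20 at −0.82 and IFI27 at −0.83, and none of the 3 passed. IFIT2 was also lost without MUM2B wild type replicate 3 (−1.87) and without any of the 4 CANT1 arrays of replicates 2 and 3 (−1.77). ISG20 was also lost without OCM1 wild type replicate 2 (−1.57), and IFI27 without MUM2B wild type replicate 3 (−1.51), OCM1 wild type replicate 2 (−1.18) or OCM1 wild type replicate 3 (−1.46).

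Without OCM1 wild type replicate 1, the number of members that differed between the wild type lines was 17, with 10 higher and 7 lower, where 43.6% of all genes differed, and IFIT2 and ISG20 no longer passed (−1.06 and −1.03, limma adjusted p = 0.0888 and 0.0753). HERC5 then stood at 3.07, BST2 at 1.52, IFI6 at 1.87, IFITM2 at −2.86 and IFITM3 at −1.64. On replicates 2 and 3 alone 25 of 37 members differed, 16 higher and 9 lower, where 63.9% of all genes differed.

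In CANT1 cells the lines differed in 11 members, 4 higher in OCM1 and 7 lower, where 21.1% and 16.1% of all genes were called. BST2 was higher by 4.48 ± 0.44 (limma adjusted p = 5.39e-05), HERC5 by 3.26 ± 0.24 (adjusted p = 9.01e-06), PARP9 by 2.67 ± 0.74 (adjusted p = 0.0177) and IFI6 by 2.57 ± 0.45 (adjusted p = 0.00172). In these 4 genes all OCM1 CANT1 arrays lay above all MUM2B CANT1 arrays, as in 9 members in all, with 13 wholly below, where 29.3% and 22.1% of all genes were so placed. BST2 and HERC5 were under the filter signal on every MUM2B CANT1 array and were tested here through OCM1. PARP9 no longer passed without OCM1 CANT1 replicate 1 (2.29), MUM2B CANT1 replicate 2 (2.49) or MUM2B CANT1 replicate 3 (2.46). Lower in OCM1 were IFITM2, IFI27, SAMD9, IFIT2, IRF1, ISG20 and EIF2AK2, of which IFIT2 was lost with any 1 of the 6 CANT1 arrays left out (−2.02 to −1.82). The number of members was 19 without OCM1 wild type replicate 1, with 8 higher and 11 lower beside 48.1% of all genes, which enters this fit only through the shared spread and the set term, and 9 members differed between the lines in both kinds of cell.

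The pathway above these genes was read from 33 further genes. The interferon genes themselves were dim: 7 of 10 were measured and none reached a signal of 100 on any array, with IFNB1 at 17.1 to 35.9. In MUM2B CANT1 cells 8 of the 19 tested pathway genes were higher and 0 lower on replicates 2 and 3, beside 14.2% and 10.3% of all genes. STING1, the adaptor of cytosolic DNA sensing, had 310, 465 and 636 in MUM2B CANT1 cells, against 677, 177 and 151 in MUM2B wild type cells, and rose by 1.56 ± 0.15 (limma adjusted p = 0.000172). TICAM1, the adaptor of TLR3, rose by 0.96, the gamma interferon receptor subunit IFNGR2 by 0.75, the regulator IRF2 by 0.73, and the type I receptor subunit IFNAR2 by 0.52. As for most members, MUM2B wild type replicate 1 had the highest STING1 level of its line. On replicate 1 TICAM1 was lower in the MUM2B CANT1 array than in the wild type array, at 506 and 865. So were IFNGR2 (1327 and 1730), IRF2 (494 and 662) and IFNAR2 (312 and 389). The CANT1 difference on replicate 1 was below that on replicates 2 and 3 for 9 of the 19 and above for 1. Of all genes, 18.1% and 17.7% were so called, so these rises describe replicates 2 and 3. In OCM1 only the receptor kinase JAK1 passed, at 0.40 ± 0.10 (adjusted p = 0.0128), and 0 were lower.

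The counts were also taken by the presence of an ISRE match. In MUM2B, 9 of the 22 tested members with a match were higher on replicates 2 and 3, with a median difference of 0.35, and 2 of the 7 with a window and no match, with a median of 0.21. Of all tested genes with a window, 23.4% of the 384 with a match and 14.1% of the 9757 without were higher there. In OCM1 the counts were 6 of 22, with a median of 0.24, and 3 of 7, with a median of 0.42, beside 16.1% and 13.8% of all such genes. BST2 and ISG20, whose windows are printed above, each carry ISRE matches and each led in 1 line only.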

How the data were processed

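RNA was hybridised to 12 arrays, 3 in each of 4 groups. The authors deposited 1 value per probe set and array, read here as log2 intensities from their range, for which MAS5 is named per the submitters' processing notes. The base of the logarithm and the normalization are not given in the sources used here. Scanner images and probe intensities were not analysed here.

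Of 49395 probe sets, 102 controls were left out. Per the platform annotation 44988 named 1 gene, 1832 several and 2473 none, and 44961 were matched to a current symbol by gene identifier. The arrays of replicate 1 had deposited medians of 6.85 to 6.88, and the 8 other arrays of 6.38 to 6.45. Each array was taken to a linear scale, scaled to a 2% trimmed mean of 500 (factors 1.17 to 1.23 and 1.63 to 1.79) and taken to log2 after adding 32. A shift of all genes could not have been seen after this. On 1 beta-actin control, the 3′ minus 5′ difference was 2.15 to 2.51 for replicate 1, against 0.473 to 0.911 for the remaining arrays. Its part in the differences between the sets was not tested.

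limma 3.58.1 in R 4.3.3 (lmFit, eBayes, Benjamini-Hochberg at 0.05) was fitted across all genes with a signal of at least 100 on 3 of 12 arrays (12722 genes, with a term for the labelled set, or 1 term for each group in each set) or on 2 of 8 (12380 genes, replicates 2 and 3). It was tested on simulated data with known changes and independent noise. For the CANT1 and line comparisons on 12 arrays these held no difference between the labelled sets. That test thus does not show how those fits behave where the sets disagree. The median standard error of a CANT1 difference was 0.107 on replicates 2 and 3 and 0.183 on 12 arrays.

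Over 12 arrays same-numbered arrays deviated together at 0.195 to 0.222 between the wild type lines and 0.427 to 0.623 between the CANT1 lines. Between CANT1 and wild type in OCM1 the values were 0.143 to 0.176. There the numbers may pair the arrays, as read from these correlations and not from the labels. The labelled set is part of these deviations. In MUM2B the values were 0.029 to 0.464, and the numbers were not taken to pair.

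The members, lists, comparisons and the rule for named genes were chosen with earlier results of these data known. The rule gives array values for the 6 largest increases and 4 largest decreases that passed per line on replicates 2 and 3, the 5 largest each way between wild type lines, the interferon transcription factors, and the 3 largest gaps between sets per line. Alternatives were another normalization, the deposited values, other filters, an intensity trend, the mean over probe sets, no set term, a replicate block, fewer arrays and each array left out.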

Additional observations from a re-analysis of the deposited data

Results flagged for a closer look

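The CANT1 difference was unequal between OCM1 and MUM2B, by the limma test of the difference itself on replicates 2 and 3, for 16 members and 4 further genes of the pathway. Above 0, and so higher in OCM1, were BST2 at 3.16, IFI6 at 1.18, IFITM3 at 0.61 and HERC6 at 0.56. Below 0 among the members were ISG20 at −1.51, UBE2L6 at −1.33, IFIT2 at −1.20, IFI27 at −1.08, IFIH1 at −0.99, IFIT1 at −0.80, IFI44 at −0.78, GBP1 at −0.61, IFIT3 at −0.54, PLSCR1 at −0.51, TRIM21 at −0.50 and OASL at −0.41. GBP1 and TRIM21 passed in neither line alone. BST2 in MUM2B and ISG20 in OCM1 were under the filter signal on replicates 2 and 3 and were tested there through the other line. BST2, IFI6, ISG20, UBE2L6, IFI27, IFIT1 and IFI44 passed with each array left out in turn, although IFI44 did not as the mean over its probe sets (−0.29, limma adjusted p = 0.0535), and the 9 other members did not with at least 1 array left out. Of the pathway genes, STING1 stood at −1.37, TICAM1 at −0.93, IRF2 at −0.92 and IFNGR2 at −0.54. The cause was not tested. On replicate 1 in MUM2B, 14 of the 15 members raised on replicates 2 and 3 were lower in CANT1 cells, so these differences between the lines describe replicates 2 and 3.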

How the results depend on the processing

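The number of members called stayed within 1.5 times of the reported one under most alternatives. Using the deposited values without rescaling or offset gave 8 in OCM1 on replicates 2 and 3, against 13. Averaging all probe sets gave 1 in OCM1 on 12 arrays, against 0. Between the wild type lines (10), leaving out the set term gave 6 and replicates 2 and 3 alone gave 25. Between the CANT1 lines (11), replicates 2 and 3 alone gave 28 and only the arrays compared gave 26. With each array left out in turn, the counts on replicates 2 and 3 ran from 10 to 17 in MUM2B, 4 to 14 in OCM1 and 9 to 15 for the difference between the lines. They ran from 0 to 1 in OCM1 on 12 arrays, 7 to 17 between the wild type lines, 9 to 19 between the CANT1 lines, and, between the sets, 17 to 22 in MUM2B and 23 to 25 in OCM1. MUM2B on 12 arrays stayed at 0. A comparison of the sets without a replicate 1 array of that line gives no value. Of the genes, IRF7 in MUM2B ran from −0.063 to 0.22 with 1 array of that line left out, below 0 without CANT1 replicate 3 and without wild type replicate 3 (−0.02), and SP110 in OCM1 turned to 0.0085 with the mean over its probe sets. Same-numbered CANT1 and wild type arrays deviated together at 0.194 in MUM2B and −0.128 in OCM1 on replicates 2 and 3, where the numbers were not taken to pair the arrays. With the replicate block the counts were 19 in MUM2B, 15 in OCM1 and 17 for their difference on replicates 2 and 3, and 0, 0, 8 and 11 on 12 arrays for MUM2B, OCM1, the wild type lines and the CANT1 lines, where the block changed no call of a named gene on 12 arrays except IFI6 and IFIT2 between the wild type lines. With the OCM1 wild type numbers crossed, chosen after seeing the data, 12 were called in OCM1.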
